A study of Equus caballus with 4 samples.

Results

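The potassium channel genes were taken as every gene name of the array annotation that, in upper case, begins with KCN, goes on with further letters and ends in a number. This gave 67 genes with 136 probes, of 24998 gene names and 43603 probes left once control spots were removed. Equine satellite cells (ESC), the stem cells of skeletal muscle, were studied during differentiation, and their mRNA was measured on 4 two-colour arrays of 60-base probes on 1 slide, *n* 4. The ESC came from the *m. semitendinosus* of 6-month-old colts, and preplating was used to reduce fibroblasts. On every array, Cy5 carried cells given HMB, a metabolite of leucine, for 24 h on the 3rd day of differentiation. Cy3 carried control cells kept over the same time in differentiation medium alone. The sample descriptions, however, call the Cy5 cells GO-treated and all end in replicate 1, whereas titles and source names give HMB and replicates 1 to 4, and these were followed. The dose is 50 µg in the sample labels, whereas the methods give it in µM. The dyes were never exchanged, so the effect of HMB and the dye bias of a probe cannot be told apart. The sources used here do not name the colts behind each array, and *P* values therefore measure only the spread between these arrays.

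Potassium channels let potassium leave the cell and so hold the membrane at a negative voltage. In myoblasts, a shift of the membrane to more negative voltage, carried first by an ether-à-go-go channel and then by the inward rectifier *KCNJ2*, precedes fusion and acts through calcium entry. In muscle fibres, voltage-gated, calcium-activated, ATP-sensitive and leak channels shape the action potential and the return to rest.

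Each value is the log2 ratio of HMB over control on an array, so that a positive value stands for more mRNA in HMB-treated cells. In RNA from whole cultures, fewer cells of a type and less RNA per cell cannot be told apart. The test took in a probe if all 4 arrays showed it well above background, as marked by Feature Extraction, in the control channel or all 4 in the HMB channel. This held for 33 of the 136 probes, 24 of them in both channels, 7 in HMB only and 2 in control only. Another 27 probes were well above background on some arrays, and 76 were on no array in either channel. By gene, 20 had a probe that both channels showed on all arrays, and *KCNE4* had 1 in the HMB channel only. A further 18 genes had only probes above background on some arrays of a channel, and 28 genes had none on any array. On arrays 1 to 4, 25, 23, 26 and 29 of the 67 genes had a probe above background in control cells, and 28, 24, 24 and 32 in HMB-treated cells. The number of genes seen thus differed little between the channels, and it was highest in both on array 4. Where 1 channel was above background on all arrays and the other was not, a fold is given as a bound. It sets the mean of the brighter channel against the dimmer one, for which the faintest probe still above background stands in on any array where it is dimmer. The channels were taken after lowess and Aquantile scaling, so a bound holds for that scaling only and is open to dye bias. Where no array needed the stand-in, the value equals the plain mean fold and is no lower limit. A probe that entered through its brighter channel alone was favoured by the filter to differ, so its *P* is given as a description and supports nothing.

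**Figure D1:**
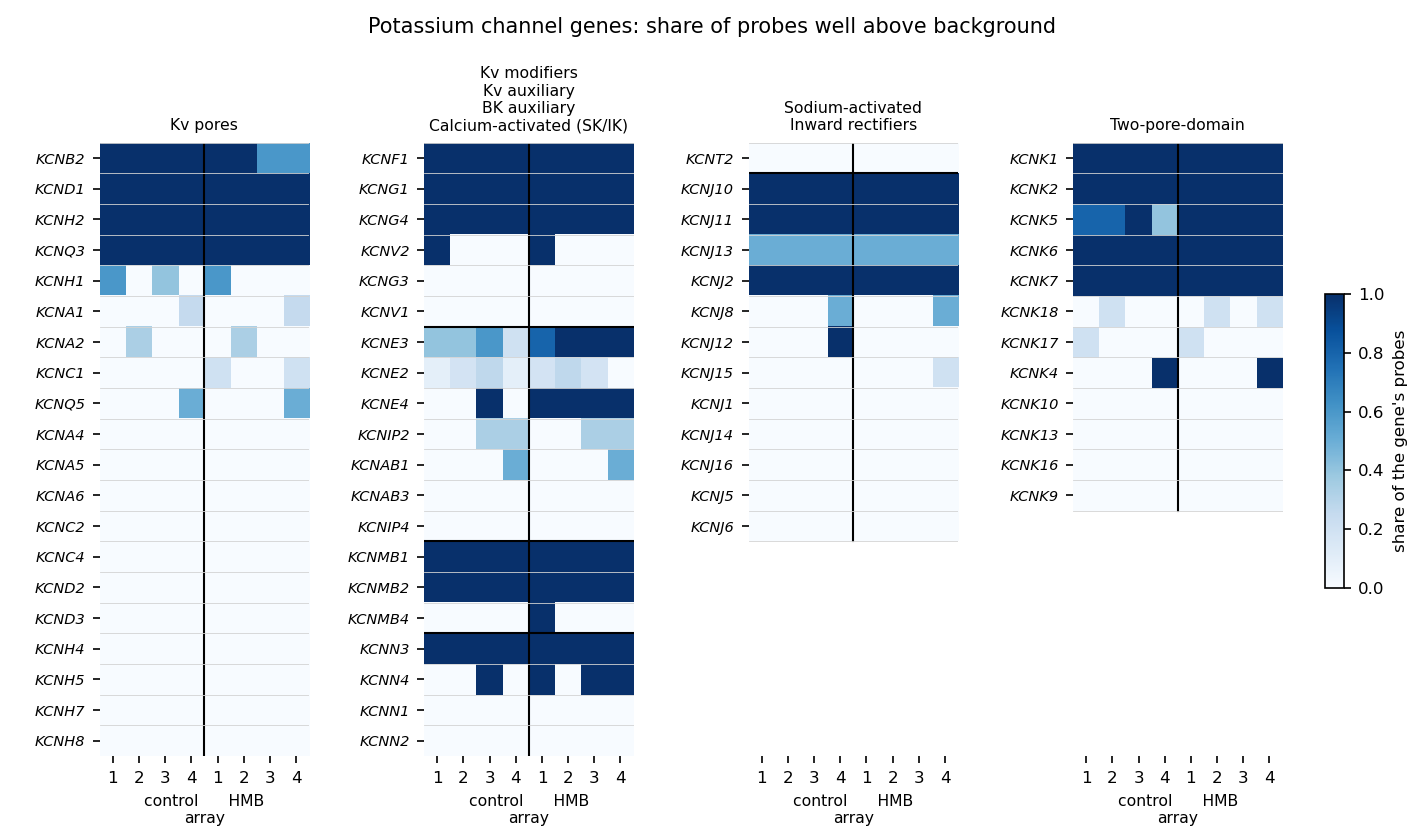
Share of each gene's probes that were well above background (colour scale, 0 to 1) in the control channel and in the HMB channel of arrays 1 to 4, for the potassium channel genes named in the text, in 8 classes separated by black lines or panels. Of the pore-forming genes of voltage-gated channels shown (Kv pores), most had no probe above background on any array.

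A gene was represented by its tested probe of highest mean signal, and its mean ratio was tested against 0 with limma, two-sided, adjusted over all 27384 tested probes. Of the 21 tested genes, 11 (52.4%) had an adjusted *P* of at most 0.05, against 22.8% of all tested probes. HMB-treated cells had more mRNA of 5 and less of 6, and each gene had the same sign on all 4 arrays. Of all tested probes past the threshold, 3071 were higher and 3186 lower. The 21 genes are not all members, since a gene entered through a channel lit on every array, and *KCNE4* entered through HMB alone. With both channels required on all arrays, 10 of 20 genes passed, where 5771 of 26097 probes did. The median of the 21 mean ratios was 0.12, against 0.02 for all tested probes. It was −0.11, 0.06, 0.02 and 0.14 on arrays 1 to 4, and −0.078 when the arrays were centred on their medians without lowess, so the list as a whole had no settled direction. The median size of the mean ratio, sign set aside, was 0.41, against 0.15 for all tested probes. Members that passed thus lay on both sides of 0.

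The number of genes past the threshold depended on the test. A plain t-test, which takes each probe on its own 4 ratios, left 0 of the 11 genes past the threshold after the Benjamini and Hochberg adjustment when each was represented by its brightest probe, with adjusted *P* between 0.0547 and 0.164. Of all 33 tested probes of the 21 genes, 1 passed it, the second probe of *KCNMB2* (adjusted *P* = 0.0253). Of all 27384 tested probes, 768 passed it. At the same level without adjustment, 10 of the 21 genes passed that t-test, and 12 had an unadjusted *P* under 0.05 with limma. Among all 27384 tested probes, 8435 passed that t-test without adjustment, and 10546 had an unadjusted *P* under 0.05 with limma. Without pairing of the channels within an array, 4 of the 11 kept their call, where 2226 of all 27384 tested probes passed. With no filter on dim probes, also 4 kept it. Without that filter, 10 of all 67 genes passed, 2 higher and 8 lower. Of all 43603 probes, 3690 passed without it, 1591 higher and 2099 lower. All 11 kept their direction with normexp and loess and without lowess. The other alternatives could not turn it in most of them, since they left the mean as it was or left out 1 of 4 arrays of the same sign. Precision is limited by the number of arrays.

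**Figure D2:**
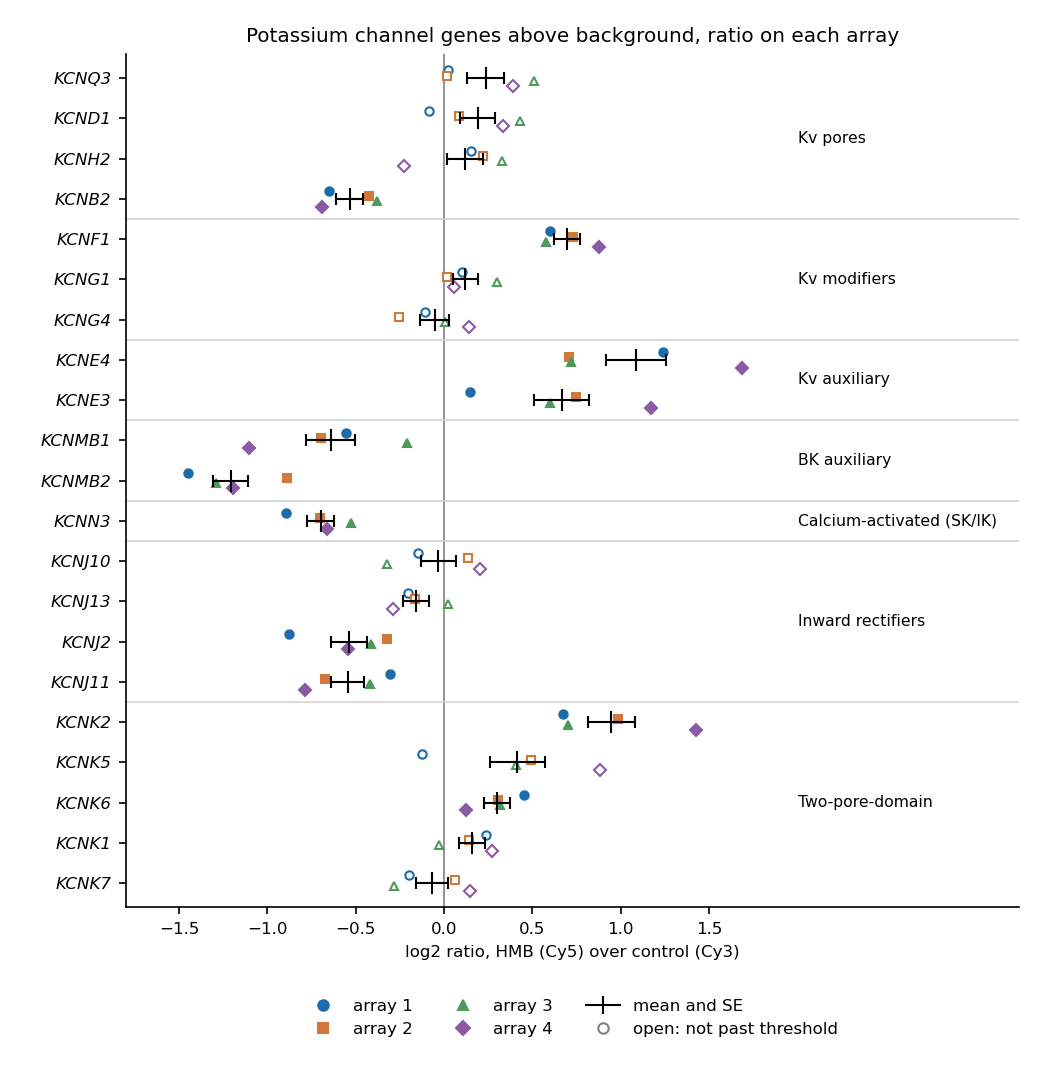
Log2 ratio of HMB (Cy5) over control (Cy3) on each of the 4 arrays (coloured symbols) for the 21 tested potassium channel genes, with the mean and its standard error in black, by class; open symbols mark genes not past the threshold. Both auxiliary subunits of BK channels lie below 0 on every array and both tested *KCNE* genes above it.

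Among the auxiliary subunits of the large-conductance calcium-activated (BK) channel, both tested genes fell, where 22.8% of all tested probes passed. *KCNMB2*, whose protein inactivates the channel, had log2 ratios of −1.45, −0.89, −1.29 and −1.19 on arrays 1 to 4. Every array was far below 0, with array 2 nearest to it. The mean was −1.21 (SE 0.10), a 2.31-fold lower level, with adjusted *P* = 0.00156. Its second probe, whose longest run of bases in common with the first is 6, gave −1.65, −1.58, −1.50 and −1.64, with a mean of −1.59. The arrays of this probe were closer together than those of the first. *KCNMB1*, whose protein raises the calcium sensitivity of the channel in smooth muscle, had ratios of −0.56, −0.70, −0.21 and −1.10. All were below 0, but array 4 was far lower than array 3. The mean was −0.64 (SE 0.14) with adjusted *P* = 0.0232, and the call was lost without array 1 (adjusted *P* = 0.0620) and without array 2 (0.0771), in a range over the alternatives of 0.0112 to 0.328. *KCNMB4* was above background in the HMB channel of 1 array and was not tested.

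The pore of this channel, *KCNMA1*, is not among the 67 genes, because the array names its transcript by an identifier. The probe described as its alpha member had ratios of 0.25, 0.14, −0.01 and 0.98, with the control channel above background on 3 arrays. The mean of 0.34, which is 1.27-fold as a plain mean and no lower limit, rested mainly on array 4. It was not past the threshold (adjusted *P* = 0.173). The probe entered through HMB alone, which favours a mean above 0, so its sign is not set against that of the auxiliary subunits. The difference between pore and auxiliary subunits was not tested.

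*KCNN3* was the 1 tested gene of the 4 small- and intermediate-conductance calcium-activated channels. It codes for a channel that calcium opens through calmodulin and that appears on muscle lacking a nerve. Its ratios of −0.90, −0.70, −0.53 and −0.66 lay close together and below 0. The mean was −0.70 (SE 0.08) with adjusted *P* = 0.00345, and leaving out any 1 array kept the call. *KCNN4*, the intermediate-conductance channel of dividing cells, was not tested. It was above background on 1 array in control cells and on 3 in HMB-treated cells, with ratios of 1.50, 0.11, 0.67 and 1.50. The arrays all lay above 0 but array 2 hardly did. On array 2 neither channel was above background, so no bound is given. *KCNN1* and *KCNN2* were above background on no array. The only sodium-activated member, *KCNT2*, was not either.

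Of 12 inward rectifier genes, 4 were tested, of which 2 fell and none rose, where 22.8% of all tested probes passed. *KCNJ2*, which sets the resting potential and hyperpolarises myoblasts before fusion, had ratios of −0.88, −0.32, −0.41 and −0.54. Array 1 was lowest and all 4 were below 0. The mean was −0.54 (SE 0.10) with adjusted *P* = 0.0155. *KCNJ11*, the pore of the ATP-sensitive channel, is shown with its probe because that 1 probe on the minus strand at chr7:73473153-73473212 carries the whole result for the gene. All positions are those of the array annotation on the EquCab1 build, and no exon or UTR annotation of that build was used here.
KCNJ11: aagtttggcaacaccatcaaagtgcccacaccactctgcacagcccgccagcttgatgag
The ratios of this probe were −0.31, −0.67, −0.42 and −0.79, each below 0, with arrays 2 and 4 lower than the others. The mean was −0.55 (SE 0.09) with adjusted *P* = 0.0125, and the call was lost without array 2 (adjusted *P* = 0.0548), in a range over the alternatives of 0.00752 to 0.105. *KCNJ13*, an inward rectifier of epithelia, had a mean of −0.16 (−0.20, −0.16, 0.02 and −0.29), which did not pass (adjusted *P* = 0.158). It passed only without lowess, at −0.37 (adjusted *P* = 0.0197; range over the alternatives 0.0197 to 0.803). *KCNJ10*, the inward rectifier of glia, had a mean of −0.03 with arrays on both sides of 0. The ratios of *KCNJ12*, a close relative of *KCNJ2* in muscle, were not tested, since its probe was above background only in control cells of 1 array. *KCNJ8* and *KCNJ15* were above background on 1 array, and *KCNJ1*, *KCNJ5*, *KCNJ6*, *KCNJ14* and *KCNJ16* on none.

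Of the 22 pore-forming genes of voltage-gated channels, 4 were tested and only *KCNB2* passed, lower with HMB. This count is near the share of all tested probes that passed, 22.8%. *KCNB2* codes for a delayed rectifier, which ends the action potential. The ratios of its brightest probe were −0.65, −0.42, −0.38 and −0.69. All were below 0 and within a narrow span. The mean was −0.54 (SE 0.08) with adjusted *P* = 0.00738. Its 5 probes share 39 bases and are not independent. The 3 that both channels showed on all arrays passed, with means of −0.54, −0.68 and −0.92. The other 2 entered through control cells alone, with the HMB channel above background on 2 arrays, and for these the fall was at least 1.95-fold and at least 1.60-fold. As the mean of all 5 probes, the gene stood at −0.83, which is not an exact fold because these 2 are included.

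A transcript carried on the array under an identifier is also described as Shab-related member 2, the older name of *KCNB2*. Its 5 probes had means from 0.18 to 0.31, none past the threshold (adjusted *P* from 0.0672 to 0.353), and in 1 of them control cells were above background on 3 arrays only. The annotation thus gives 1 channel name to probes that fell and to probes that lay above 0. Which of them measured the *KCNB2* transcript was not tested.

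The other tested pores did not pass. *KCNQ3*, a subunit of the M-current that damps repeated firing, had ratios of 0.02, 0.02, 0.51 and 0.39 (mean 0.24, adjusted *P* = 0.148). *KCND1*, an A-type channel, had −0.09, 0.08, 0.43 and 0.33 (mean 0.19, adjusted *P* = 0.209). *KCNH2*, the rapid delayed rectifier of the heart, had a mean of 0.12. In each of them the arrays differed by as much as the mean itself or more.

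Most other pores were near background. *KCNH1*, the ether-à-go-go channel that starts the hyperpolarisation of myoblasts, has 5 probes that share 56 bases, and none was above background on more than 2 arrays in either channel. *KCNA1*, *KCNA2*, *KCNC1* and *KCNQ5* were also seen on some arrays only. For *KCNC1*, 1 of 5 probes gave ratios of 2.43, 1.78, 2.67 and 2.62. Its HMB channel was above background on 2 arrays and its control channel on none, so no bound is given. The other 4 probes of *KCNC1* share 51 bases with it and were above background on no array, so these large ratios stand alone. *KCNA4*, *KCNA5*, *KCNA6*, *KCNC2*, *KCNC4*, *KCND2*, *KCND3*, *KCNH4*, *KCNH5*, *KCNH7* and *KCNH8* were above background on no array.

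The modifier subunits carry no current alone and alter the pores they join. *KCNF1*, which joins the family of *KCNB2*, rose, and its only probe lies on the minus strand at chr15:79277756-79277815. It is shown as the 1 sequence behind the rise of a modifier.
KCNF1: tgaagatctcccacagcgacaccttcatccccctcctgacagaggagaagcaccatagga
The ratios were 0.60, 0.73, 0.57 and 0.88, all above 0 and close together. The mean was 0.70 (SE 0.07) with adjusted *P* = 0.00320, and the call held whichever array was left out. *KCNG1* (mean 0.12) and *KCNG4* (mean −0.05) belong to the same group of silent subunits and did not pass. *KCNV2* was above background on 1 array, and *KCNG3* and *KCNV1* on none.

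Of the 7 auxiliary subunits of voltage-gated channels, 2 were tested, *KCNE3* and *KCNE4*, and both rose, where 22.8% of all tested probes passed. *KCNE4* entered through HMB alone, a filter that favours a rise, so its call supports nothing. The proteins of both genes are small, span the membrane once and bind pores such as *KCNQ1*, which *KCNE3* keeps open and *KCNE4* inhibits. *KCNE3* also joins a fast voltage-gated pore in skeletal muscle. The 5 probes of *KCNE3* are offset by 1 base each, at chr7:57267856-57267919 on the plus strand, and are shown because control and HMB cells both showed only 1 of them on every array. Capitals mark the 56 bases that all of them share, and the 1 probe of *KCNE4*, at chr6:12052147-12052206 on the plus strand, follows them.
KCNE3 probe 1: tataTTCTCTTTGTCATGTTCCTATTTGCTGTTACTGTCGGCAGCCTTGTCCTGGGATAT
KCNE3 probe 2: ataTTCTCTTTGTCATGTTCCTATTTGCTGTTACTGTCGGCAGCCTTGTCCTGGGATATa
KCNE3 probe 3: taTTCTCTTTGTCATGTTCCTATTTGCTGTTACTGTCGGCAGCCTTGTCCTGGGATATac
KCNE3 probe 4: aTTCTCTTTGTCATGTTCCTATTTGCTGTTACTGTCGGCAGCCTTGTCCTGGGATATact
KCNE3 probe 5: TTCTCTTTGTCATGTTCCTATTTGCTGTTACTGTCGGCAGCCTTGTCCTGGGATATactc
KCNE4: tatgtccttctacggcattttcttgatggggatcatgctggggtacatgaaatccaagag

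For *KCNE3*, probe 5 was the brightest and gave 0.15, 0.74, 0.60 and 1.17. Array 1 was near 0 and array 4 highest. The mean was 0.66 (SE 0.15) with adjusted *P* = 0.0284. Without array 2, array 3 or array 4 this call was lost (adjusted *P* = 0.0897, 0.0820 and 0.0532), in a range over the alternatives of 0.0209 to 0.164. Probes 2, 3 and 4 entered through HMB alone, with control cells above background on 0, 3 and 1 arrays, and for these HMB was higher by at least 1.68-fold, 1.79-fold and 1.60-fold. Probe 1 was above background on 3 arrays in HMB and on none in control, and was not tested. Its ratios were 0.24, 1.70, 0.90 and 2.48.

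*KCNE4* had ratios of 1.24, 0.71, 0.72 and 1.68. All 4 arrays were above 0, arrays 1 and 4 most. HMB was above background on 4 arrays and control on 1, so the rise is given as at least 2.08-fold on the deposited scaling. The mean was 0.36 with normexp and loess and 0.81 without lowess, both below this bound. The adjusted *P* of 0.00922 supports nothing, since the probe entered through HMB alone. *KCNE2* was not tested, since none of its 11 probes was above background on more than 3 arrays in either channel. *KCNAB1* and *KCNIP2* were seen on some arrays only, and *KCNAB3* and *KCNIP4* on none.

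**Figure D3:**
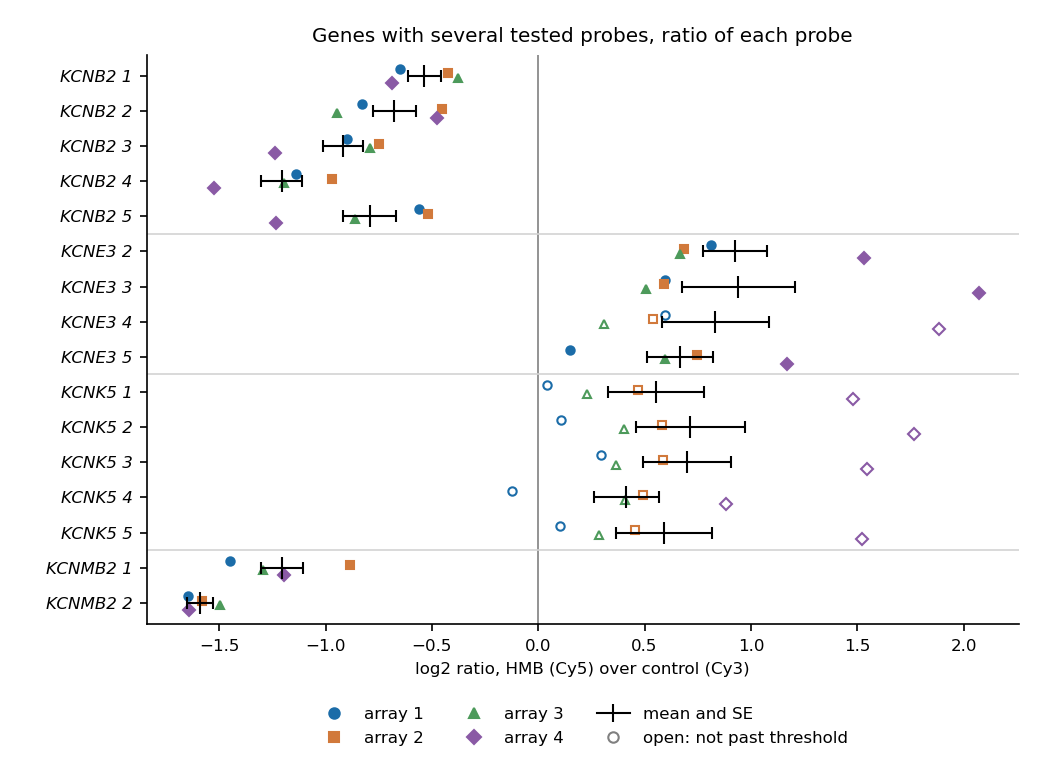
Log2 ratio of HMB (Cy5) over control (Cy3) on each of the 4 arrays for every tested probe of the 4 genes with more than 1 tested probe, with the mean and its standard error in black; open symbols mark probes not past the threshold, and probes are numbered as in the text for *KCNE3* and *KCNK5* and from the brightest down for the others. The 5 probes of *KCNB2* and the 2 of *KCNMB2* lie below 0 on every array, whereas array 4 stands above the others for *KCNE3* and *KCNK5*.

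The pore *KCNQ1* bound by these subunits is carried under an identifier. The probe described as KQT-like member 1 gave −0.18, −0.22, −0.23 and −0.23. These 4 values were nearly equal. The mean of −0.21 was small and past the threshold (adjusted *P* = 0.0412). Kv channel interacting protein 3 (*KCNIP3*), a calcium sensor that also binds DNA, was likewise found only by its description. The probe of its transcript with the largest change gave −0.77, −0.82, −0.81 and −0.79. The 3 probes of the transcript had means of −0.80, −0.73 and −0.69, all past the threshold. No gene of the *KCNIP* family among the 67 was tested.

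Two-pore-domain channels carry the leak that sets the resting voltage. Of 12 such genes, 5 were tested, of which 2 rose and none fell, where 22.8% of all tested probes passed. *KCNK2*, opened by stretch and by lipids, had ratios of 0.67, 0.99, 0.70 and 1.43. All arrays were well above 0, with array 4 highest. The mean was 0.95 (SE 0.13), a 1.93-fold higher level, with adjusted *P* = 0.00665. *KCNK6*, a weak rectifier, had 0.45, 0.30, 0.31 and 0.12, and here array 4 was lowest. The mean was 0.30 (SE 0.07) with adjusted *P* = 0.0327. The call was lost on leaving out array 1 (adjusted *P* = 0.0739), 2 (0.128) or 3 (0.121), with normexp (0.0674) and without lowess (0.225), in a range over the alternatives of 0.0265 to 0.225.

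*KCNK5*, opened by alkaline surroundings, had all 5 probes tested and none past the threshold. They are shown because each differs from the next by a shift of 1 or 2 bases on the minus strand at chr20:32166548-32166612. Capitals mark the 55 bases that all share.
KCNK5 probe 1: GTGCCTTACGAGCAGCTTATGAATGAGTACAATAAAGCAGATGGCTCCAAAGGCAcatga
KCNK5 probe 2: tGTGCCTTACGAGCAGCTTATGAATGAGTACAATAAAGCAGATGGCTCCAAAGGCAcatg
KCNK5 probe 3: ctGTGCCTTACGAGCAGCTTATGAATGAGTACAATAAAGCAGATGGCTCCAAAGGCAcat
KCNK5 probe 4: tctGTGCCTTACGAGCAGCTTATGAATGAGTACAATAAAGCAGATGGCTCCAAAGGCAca
KCNK5 probe 5: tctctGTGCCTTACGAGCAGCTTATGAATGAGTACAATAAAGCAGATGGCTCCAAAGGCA
Probe 4, the brightest, had ratios of −0.13, 0.49, 0.41 and 0.88, with array 1 below 0. The mean was 0.41 (SE 0.15) with adjusted *P* = 0.0991. Probe 3, which both channels also showed on all arrays, had a mean of 0.70. Ratios of the other probes on array 4 ran from 1.48 to 1.77, where control cells showed only 2 of the 5 probes above background. That array was the highest for each of the 5 probes. In probes 1, 2 and 5, control cells were above background on 2 or 3 arrays only. For probe 2 the bound is at least 1.59-fold higher with HMB. In probes 1 and 5 no faintest probe had to stand in, so 1.47-fold and 1.51-fold are plain means and no lower limits. By limma none of them passed (adjusted *P* = 0.126, 0.0921 and 0.106 for probes 1, 2 and 5). Without array 1, *KCNK5* passed at 0.59 (adjusted *P* = 0.0319; range over the alternatives 0.0319 to 0.283), and without array 4 its mean was 0.26.

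*KCNK1* had 0.24, 0.14, −0.03 and 0.27 (mean 0.16, adjusted *P* = 0.169), and *KCNK7* a mean of −0.07, with arrays on both sides of 0. *KCNK4*, *KCNK17* and *KCNK18* were above background on some arrays, and *KCNK9*, *KCNK10*, *KCNK13* and *KCNK16* on none.

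The size of these ratios depended on how background and dyes were corrected. With normexp at an offset of 50 and loess, both changed together, the mean of *KCNE4* was 0.36 where the deposited ratios gave 1.09. Control cells showed *KCNE4* above background on 1 array only, so neither mean is an exact fold. The means were 0.33 for *KCNE3*, 0.50 for *KCNK2* and 0.16 for *KCNK6*. The falls shrank as well, to −0.24 for *KCNJ2*, −0.34 for *KCNJ11*, −0.32 for *KCNB2*, −0.42 for *KCNMB1* and −0.39 for *KCNN3*. An offset draws the ratios of dim spots towards 0 by construction. All except *KCNK6* stayed past the threshold. Among the 11 changed genes, the ratio farthest from 0 was that of array 4 for 7 and of array 1 for 4.

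**Figure D4:**
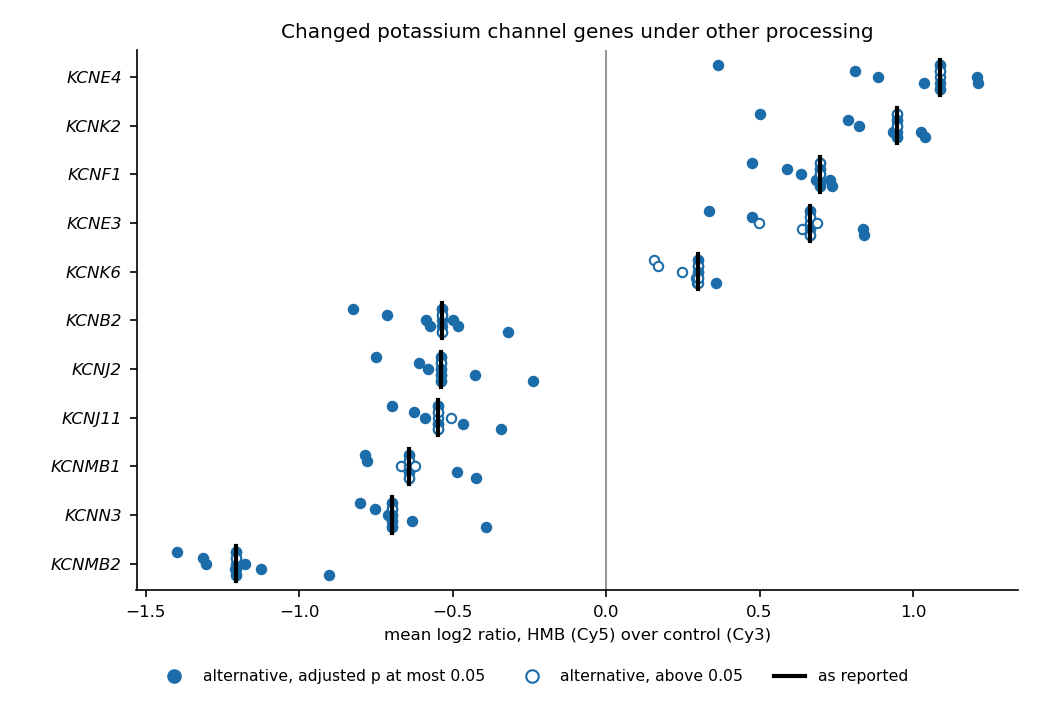
Mean log2 ratio of HMB (Cy5) over control (Cy3) of the 11 changed potassium channel genes as reported (black bars) and under each alternative (points; open where the adjusted *P* was above 0.05). No point crosses 0, and the points of *KCNK6* reach down to 0.16.

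Partners of the channels were taken from a list of 59 genes that move or gate potassium or act beside it, of which 50 had a probe and 27 were tested. Of these, 13 passed, 1 higher and 12 lower, where 22.8% of all tested probes did, 3071 higher and 3186 lower. The median ratio was −0.27 (−0.12, −0.37, −0.35 and −0.52 on arrays 1 to 4). *ABCC8*, a sulfonylurea receptor that pairs with *KCNJ11*, had −0.45, −0.51, −0.56 and −0.52. The arrays were nearly alike, and the mean of −0.51 passed (adjusted *P* = 0.00391). The other receptor, *ABCC9*, was above background on no array. Both tested parts of the ATP-sensitive channel were thus lower on each array.

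Of 8 tested genes of the sodium-potassium pump, which rebuilds the potassium gradient, 3 fell and 1 rose, where 22.8% of all tested probes passed. *ATP1B4*, a muscle-specific relative of its beta subunits, had −0.86, −0.84, −1.40 and −0.89 (adjusted *P* = 0.00335). Array 3 was lower than the other arrays, which were alike. *FXYD5*, a regulator of the pump, was the 1 gene of the list that rose (mean 0.39, adjusted *P* = 0.0408), and *FXYD6* fell (mean −0.37, adjusted *P* = 0.0190). *ATP1B3* fell by 0.23 on the log2 scale (adjusted *P* = 0.0496), and without lowess its mean was 0.00 to 2 decimals.

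The potassium-chloride cotransporter *SLC12A7* (mean −0.72) and the sodium-chloride cotransporter *SLC12A3* (mean −0.57) fell. With normexp and loess the mean of *SLC12A3* was −0.21 and did not pass (adjusted *P* = 0.111; range over the alternatives 0.0103 to 0.149). *TMEM38A* (mean −0.27) and *TMEM38B* (mean −0.63), separate cation channels in the membrane of the calcium store, fell, the first at adjusted *P* = 0.0497 and not past the threshold without any 1 of the arrays. *LRRC26*, a further auxiliary subunit of BK channels, had a mean of −0.43 (adjusted *P* = 0.0231), but 0.35 without lowess (adjusted *P* = 0.0106; range over the alternatives 0.0106 to 0.152), so its direction is not settled. Of the sodium and chloride channels, *SCN3B* (mean −0.92), *CLCN3* (mean −0.49) and *ANO5* (mean −0.86) fell. The sodium channel pore *SCN4A* and the chloride channel *CLCN1* of muscle fibres were above background on no array.

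Other falls also shrank with normexp and loess, to −0.47 for *ATP1B4*, −0.44 for *SLC12A7*, −0.58 for *SCN3B* and −0.28 for *CLCN3*, all still past the threshold, and to −0.19 for *LRRC26*, which was not. Leaving out any 1 array kept the calls of *ABCC8*, *ATP1B4*, *TMEM38B*, *SCN3B* and *ANO5*. Each of the other 8 partners lost its call without at least 1 array, so that 6 of the 27 passed without array 2 and 5 without array 3. The highest adjusted *P* with an array left out was 0.215, for *TMEM38A* without array 2, in a range over its alternatives of 0.0269 to 0.471.

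Genes of the steps from hyperpolarisation to fusion were taken from a list of 24, of which 18 had a probe and 16 were tested, 2 of them past the threshold upwards and 5 downwards, again against 22.8% of all tested probes. The median was −0.12 (−0.03, −0.07, −0.17 and −0.18 on arrays 1 to 4). *KCNJ2* and the myogenic transcription factors fell, with *MYOG* at −0.42, *MEF2A* at −0.36 and *MEF2C* at −0.56. Among the NFAT factors that calcium and calcineurin activate, *NFATC2* (0.40) and *NFATC4* (0.45) rose and *NFATC3* (−0.29) fell. Of the calcium entry genes, *STIM1*, *STIM2* and *ORAI1* were tested and had means between −0.01 and 0.10, none past the threshold. Without array 3, only *KCNJ2* of the 7 kept its call, and the others had an adjusted *P* between 0.0525 and 0.0907. Without array 2, 4 of the 16 passed. The fusion proteins *MYMK* and *MYMX* have no probe by name.

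The labelled cell type was checked against markers. All 11 tested genes of the 14 muscle lineage markers were lower with HMB. Their median was −0.98 (−0.43, −0.88, −1.08 and −1.31 on arrays 1 to 4), and the genes ran from *MYH8* at −1.93 to *ACTC1* at −0.38. The muscle markers were thus above background in these cultures. They were lower with HMB in the same samples in which 6 potassium channel genes were lower and 5 were higher. Of all tested probes, 22.8% passed. Of 9 fibroblast markers, 7 were tested and 2 were higher, *PDGFRA* (1.53) and *FAP* (0.42), while the median was 0.01 (0.33, 0.08, 0.04 and −0.08). *COL1A2*, *COL3A1* and *THY1* were below 0 and did not pass. Of 8 smooth muscle and pericyte markers, 6 were tested and *MYH11* alone passed, with −0.89, −0.83, −0.54 and −2.45, a fall of at least 1.81-fold. *MYH11* entered through control cells alone, with HMB above background on 3 arrays, so its call supports nothing. The median of the 6 markers was −0.19 (0.01, −0.21, −0.15 and −0.51). Of 6 leukocyte markers, *CD14* and *CD68* were tested, and neither passed, with a median of −0.13 (0.08, −0.01, −0.32 and −0.29). No marker of endothelium (5 genes) or of nerve and Schwann cells (7 genes, 5 with a probe) was tested. Of these, only *CDH5* and *SNAP25* were above background on any array, each in 1 channel of 1 array. The part of the muscle, fibroblast and smooth muscle markers in the ratios of the potassium channel genes was not tested.

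**Figure D5:**
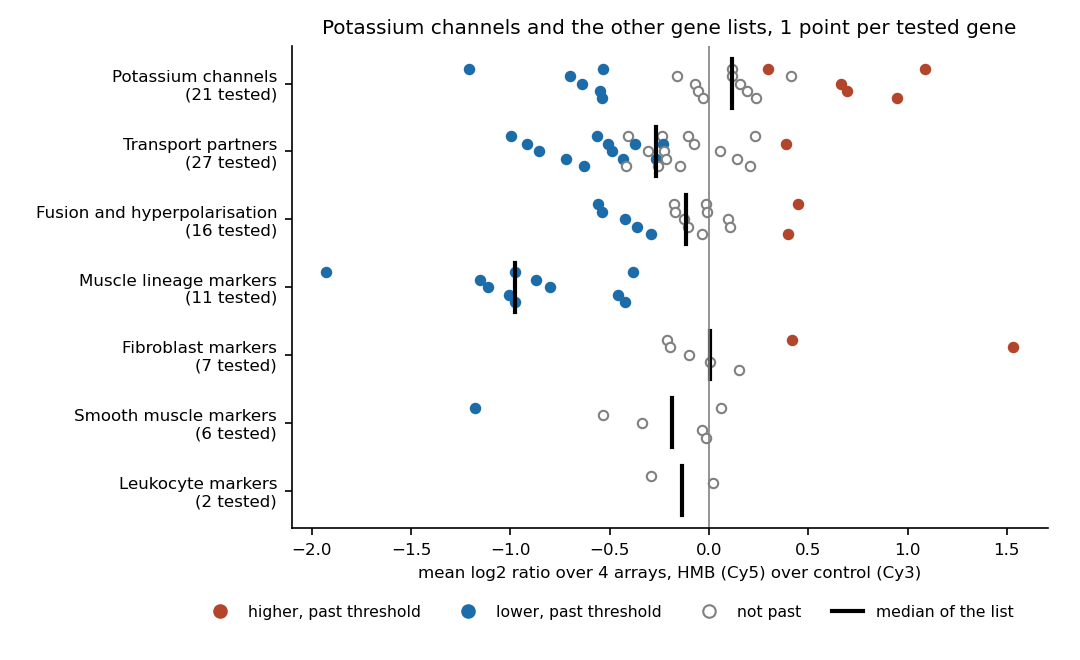
Mean log2 ratio over the 4 arrays of HMB (Cy5) over control (Cy3) for each tested potassium channel gene, gene of the other lists and cell type marker (points), with the median of each list as a black bar; filled points are past the threshold. The 11 muscle lineage markers all lie below 0, whereas the potassium channel genes lie on both sides.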

How the data were processed

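The mRNA of HMB-treated ESC (Cy5) and control ESC (Cy3) was measured on 4 arrays of 1 slide. The authors scanned the arrays, and the deposited output names Feature Extraction 10.10.1.1, another version than the methods. The deposited intensities are the mean, background and processed signals of a spot, the last after background subtraction and dye normalisation by the authors. The ratios, deposited as log10 of Cy5 over Cy3, follow linear and lowess normalisation by the authors, and other deposited columns are marks of 0 or 1.

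Multiplying by 3.322 put the ratios on the log2 scale. Left out were 1417 control spots on each array and spots marked non-uniform or outlying (11 to 32 on an array), no spot was saturated, and spots of a probe were averaged. At least 3 values were required. The intercept was tested with limma 3.58.1 (R 4.3.3, data.table version 1.17.8) by lmFit and eBayes with the Benjamini and Hochberg adjustment, and the procedure was tested on simulated data. Tables and figures were made with Python 3.11.15, numpy 2.4.6, pandas 2.3.3 and matplotlib 3.10.9. The alternatives were normexp and loess, no lowess, a plain t-test (the methods name only the default setting of their software), a robust prior with an intensity trend, separate channels with and without the array as a block, other filters on dim probes, marked spots kept, the series value table, the mean of a gene's probes, a minimum of 1.3-fold and each array left out.

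The members and lists were chosen with earlier results of these data known. Named are members with a probe past the threshold, members in the study's tables, members with a textbook role in muscle, the 5 next by size of change, and genes of the lists past the threshold. Markers not past the threshold, *STIM1*, *STIM2*, *ORAI1* and the other members were named after their values were seen. *KCNMA1*, *KCNQ1* and *KCNIP3* were found by the description column. RT-qPCR data were not analysed here. Some genes of the family and the lists are not reported by name.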

Additional observations from a re-analysis of the deposited data

Results flagged for a closer look

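The log2 ratio of *ATP1B4*, a relative of the beta subunits of the sodium-potassium pump, was −1.40 on array 3, whereas the other arrays lay between −0.89 and −0.84. Array 3 was the farthest from the rest by this gap. Of the 36 values over 4 arrays looked at in this way, 1 stood apart, and chance sets apart about 1 in 20. The cause was not tested.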

How the results depend on the processing

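All 11 changed potassium channel genes kept their direction with normexp and loess and without lowess, and 7 of them kept their call whichever array was left out. *KCNE4* is among these 7, and since it entered through HMB alone, its call supports nothing. The number of tested potassium channel genes past the threshold was 0 by a plain t-test and 4 without pairing of the channels, and 8 to 10 with an array left out. Under the t-test, 768 of all tested probes, 2 partners and 1 gene of the fusion list passed. Without pairing, 2226 probes and 7 partners passed, and 666 of the probes were higher and 1560 lower. With no filter on dim probes, 3690 of 43603 probes and 10 of 67 potassium channel genes (2 higher and 8 lower) passed. So did 8 partners and 2 genes of the fusion list. With an array left out, 2573 to 4957 probes, 5 to 12 partners and 1 to 7 genes of the fusion list passed, fewest without array 2 or array 3. The median ratio of the potassium channel genes was −0.078 without lowess, 0 with no filter, and 0.0032 to 0.11 with an array left out, lowest without array 4. *LRRC26* turned to 0.35 without lowess. The cause of these shifts was not tested. Separate channels with the array as the replicate block gave 6257 probes, and all 11 potassium channel genes kept their call. Dim signal limits the account of the 46 genes not tested.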

Other observations

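Transcripts that the array carries under identifiers and describes as potassium channels or their subunits numbered 19, with 35 probes, those of *KCNMA1*, *KCNQ1*, *KCNIP3* and Shab-related member 2 included. Of these, 19 probes of 8 transcripts were tested and 10 probes of 6 transcripts passed, against 22.8% of all tested probes. Among the 10, 3 probes, those of the *KCNA2* clone and *KCNT1*, entered through the channel in which they were brighter, so their *P* supports nothing. A clone described as similar to *KCNA2*, a fast voltage-gated pore, has 2 probes. They gave 1.31, 1.56, 0.86 and 2.34, and 1.64, 2.65, 0.92 and 2.50 on arrays 1 to 4. Every array lay well above 0, with array 3 lowest for both. The control channel was above background on 3 arrays for the first probe and on 2 for the second, so the rises are given as at least 2.85-fold and at least 2.96-fold (adjusted *P* = 0.00735 and 0.00747). The 3 probes named *KCNA2* were above background on at most 1 array, and so give no value to set beside these.

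The probe described as *KCNT1*, a sodium-activated channel, gave −0.52, −1.06, −0.24 and −0.58, with HMB above background on 2 arrays. All arrays were below 0, and the fall was at least 1.42-fold (adjusted *P* = 0.0234). The probe described as the silent subunit *KCNS1* gave −0.27, −0.33, −0.26 and −0.25, 4 nearly equal values, with a mean of −0.28 (adjusted *P* = 0.0210). Of the 5 probes described as *KCNAB2*, a cytoplasmic beta subunit, 2 passed with means of 0.38 and 0.52. The brightest, which both channels showed on all arrays, had a mean of 0.03 and did not pass (adjusted *P* = 0.872). The others, with means of 0.14 and 0.29, did not pass either.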
